A study of Rattus norvegicus with 22 samples.

Results

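Has1, Ptx3 and Timp1 encode an enzyme that makes hyaluronan, a secreted protein that binds hyaluronan matrix, and a secreted inhibitor of matrix proteases. The 3 genes were chosen with earlier results of these data known. Their names were paired with Ensembl identifiers through the study's own tables of differentially expressed genes, which name 1822 of the 32545 identifiers counted. Those tables were made from these same samples, so the direction, size, rank and p of a named gene's change in the ipsilateral hemisphere are not independent evidence. The same holds for the comparison within PBBI rats and for the interaction, which use the same injured libraries. The identifiers are ENSRNOG00000010994 for Has1, ENSRNOG00000012280 for Ptx3 and ENSRNOG00000010208 for Timp1.

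Cortical RNA was taken from adult male Sprague-Daley rats (the spelling of the labels, Sprague-Dawley in the study's methods) 24 h after a penetrating ballistic brain injury (PBBI) or a sham procedure. PBBI is a model in which a probe is driven into the right frontal lobe and a balloon on it is inflated for an instant, leaving a cavity. All rats carried implanted EEG and EMG electrodes, were anaesthetised with isoflurane and had a right frontal craniectomy, and sham rats had no probe inserted. The 4 groups were the ipsilateral (right) and contralateral (left) cortex of 6 PBBI rats and of 5 sham rats, 22 samples in all, so each rat gave a sample to both hemispheres. Sham rats thus shared the surgery on the skull, and PBBI against sham compares cortex with and without the probe and the balloon. PFC is in the library titles of both hemispheres of PBBI rat 81 and of the contralateral hemisphere of sham rat 82. The other titles lack it. Whether the dissected region of cortex differed in these libraries was not tested.

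Hyaluronan is a long sugar polymer of the extracellular matrix that fills much of the space between brain cells. HAS1 is a hyaluronan synthase of the plasma membrane. PTX3 is a long pentraxin, an inflammatory pattern recognition protein that binds complement component C1q and, through TSG-6 and inter-alpha-inhibitor, helps to link hyaluronan chains. TIMP1 is a secreted inhibitor of matrix metalloproteinases that is known to be made by reactive astrocytes in injured brain.

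Totals were between 42085341 and 63412426 counts per library. The ipsilateral library of PBBI rat 85 stood apart: the mean correlation of its log2 CPM (read counts scaled by TMM library sizes to a common depth) with the rest of its group was 0.835, and in the other 21 libraries this mean was at least 0.933. The values of the 3 genes in the ipsilateral cortex, their tests and the list counts are also given without it. The cortical label could not be checked against neuronal markers, since none of the 16 listed neuronal genes has a name in the tables used here, and Gfap, which marks astrocytes, was at 333.3 CPM or more in every sample.

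The windows of 250 bases before the start of the 3 genes are shown because the genes rose in the same samples and such windows are where shared motifs would be looked for. They come from RefSeq on the GRCr8 assembly, which is not the build of the counts, and all 3 genes matched by symbol. Each is written 5′ to 3′ on the strand of the gene, and capitals mark the match named below.
Has1, chr1:67378445-67378694, minus strand: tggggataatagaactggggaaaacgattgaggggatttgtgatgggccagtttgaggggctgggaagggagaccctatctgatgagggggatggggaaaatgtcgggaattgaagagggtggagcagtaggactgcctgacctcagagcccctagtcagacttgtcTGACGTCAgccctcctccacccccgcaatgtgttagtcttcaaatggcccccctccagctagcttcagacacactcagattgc
Ptx3, chr2:152797313-152797562, plus strand: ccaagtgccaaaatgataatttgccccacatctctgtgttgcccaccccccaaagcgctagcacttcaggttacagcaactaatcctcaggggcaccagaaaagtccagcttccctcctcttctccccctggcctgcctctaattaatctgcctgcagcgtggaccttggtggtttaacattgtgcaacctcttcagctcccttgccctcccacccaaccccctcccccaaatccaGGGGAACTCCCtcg
Timp1, chrX:3771123-3771372, minus strand: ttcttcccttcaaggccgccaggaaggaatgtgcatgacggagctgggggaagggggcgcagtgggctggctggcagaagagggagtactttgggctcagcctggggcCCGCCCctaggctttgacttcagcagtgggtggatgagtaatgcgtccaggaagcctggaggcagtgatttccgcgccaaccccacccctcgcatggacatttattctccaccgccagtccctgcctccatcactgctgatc

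The 3 windows shared no match to the 6 motifs searched on both strands. Has1 had the cyclic AMP response element TGACGTCA with its first base 83 bases before the start, which 1.70% of 27457 rat windows of this length hold. Ptx3 had 2 overlapping matches to the NF-kB motif, the first of them 14 bases before the start, and 3.52% of windows hold this motif. Timp1 had a GC box, GGGCGG, on the opposite strand 142 bases before the start, as do 32.4% of windows. AP-1 (TGANTCA, in 6.36% of windows), STAT (TTCNNNGAA, 7.52%) and the core promoter box TATAAA (13.1%) had no match in any of the 3. A match is only a run of letters, and no binding was measured in these samples.

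Has1, whose product polymerises hyaluronan at the cell surface, was close to zero outside the injured cortex. In the ipsilateral cortex of the PBBI rats its counts were 747 in rat 81, 276 in rat 90, 247 in rat 88, 66 in rat 96, 52 in rat 85 and 15 in rat 83. In sham ipsilateral cortex they were 0, 2, 0, 4 and 2 in rats 82, 84, 86, 91 and 94. The lowest injured sample thus lay above the highest sham sample, and the injured samples differed among themselves by 52.4-fold in CPM. In the contralateral cortex of the same PBBI rats Has1 had between 0 and 8 counts (median 2.5), and in sham contralateral cortex 0, 2, 2, 6 and 4. These 3 groups overlapped throughout. On the CPM scale Has1 averaged 3.57 ± 4.23 (SD, n = 6) in injured cortex, 0.0472 ± 0.0490 (n = 6) in PBBI contralateral cortex, 0.0270 ± 0.0272 (n = 5) in sham ipsilateral cortex and 0.0516 ± 0.0416 (n = 5) in sham contralateral cortex.

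Since the sham libraries held so few Has1 reads, the size of its change was taken from summed counts. The 6 injured libraries held 1403 Has1 counts and the 5 sham ipsilateral libraries 8, a depth-corrected ratio of 120.5 with an exact 95% interval of 61.0 to 279.7. Without rat 81, which held the most, the ratio was 67.5 (34.0 to 156.9). Without rat 85 it was 131.5 (66.5 to 305.2). Against the 17 counts of the contralateral hemispheres of the same rats the ratio was 75.0 (46.7 to 129.1), without rat 81 it was 65.5 (34.3 to 144.0) and without rat 85 68.4 (42.6 to 117.8). These intervals cover counting error only and take each count as independent, while low counts in these libraries were even more often than odd, 60.8% to 69.6% of counts from 1 to 19.

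Ptx3, the pentraxin of the hyaluronan matrix, was measurable in every group and highest in the injured cortex. It ranged from 4.52 CPM in rat 96 to 39.8 in rat 81 among the 6 injured samples, with a median of 26.2. In sham ipsilateral cortex it was 0.408, 0.761, 0.627, 0.255 and 0.429 CPM in rats 82, 84, 86, 91 and 94. No injured sample reached down to the sham range. In PBBI contralateral cortex Ptx3 ran from 0.383 to 4.80 CPM with a median of 0.882, and in sham contralateral cortex it was 0.372, 0.559, 0.292, 0.358 and 0.0457 CPM. There the lowest PBBI sample, of rat 96, fell inside the sham range and the other 5 lay above it. Group means were 22.7 ± 15.3 (SD, n = 6) in injured cortex, 1.50 ± 1.65 (n = 6) in its contralateral partner, and 0.496 ± 0.199 (n = 5) and 0.325 ± 0.185 (n = 5) in sham ipsilateral and contralateral cortex.

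Timp1, the metalloproteinase inhibitor, carried the most reads of the 3. Among the injured samples it ranged from 44.7 CPM in rat 83 to 407.3 in rat 81, with a median of 224.3. The sham ipsilateral values were 3.53, 6.37, 3.84, 3.64 and 9.68 CPM in rats 82, 84, 86, 91 and 94, so the lowest injured sample was again above every sham sample. In PBBI contralateral cortex Timp1 ran from 5.64 to 67.9 CPM with a median of 14.4. The sham contralateral values were 3.15, 4.83, 3.39, 7.85 and 4.73 CPM, and 4 of the 6 PBBI samples lay above all of them. The means were 224.3 ± 135 (SD, n = 6) in injured cortex, 21.7 ± 23.3 (n = 6) contralaterally, and 5.41 ± 2.66 (n = 5) and 4.79 ± 1.87 (n = 5) in sham ipsilateral and contralateral cortex.

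**Figure D1:**
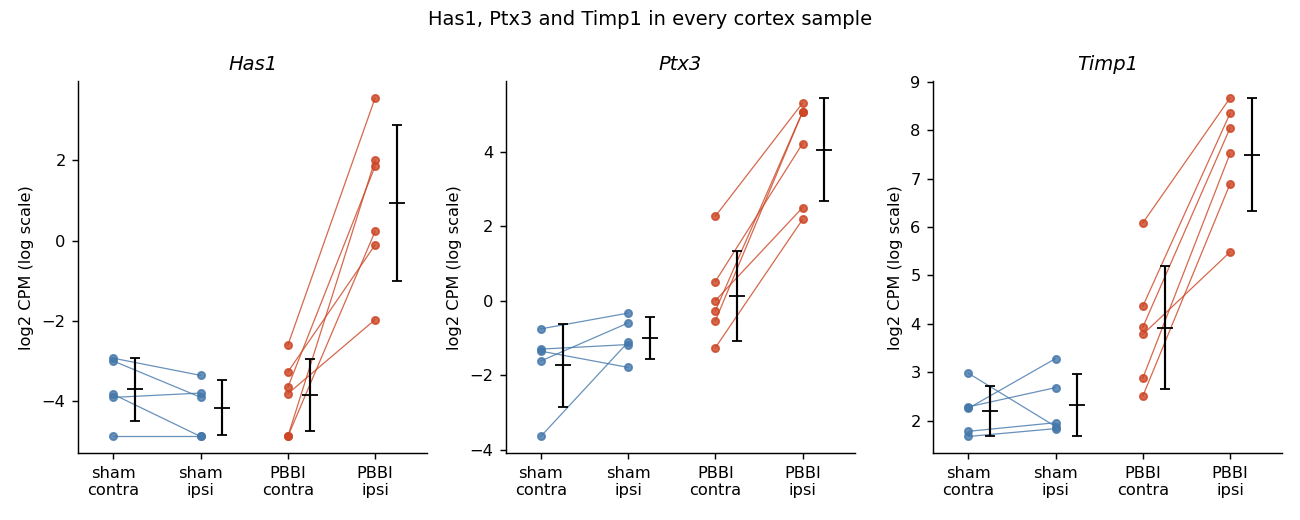
Log2 CPM (y axis, log scale) of each gene in every sample of the 4 groups (x axis), with a line joining the hemispheres of a rat and black bars for the group mean ± SD. All 6 PBBI lines climb from the contralateral to the ipsilateral cortex in each panel. The sham lines climb in 4 of 5 rats for Ptx3 and for Timp1 and in 1 of 5 for Has1. The lowest Has1 points are samples with 0 counts.

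In the injured hemisphere all 3 genes rose against sham. With edgeR, Timp1 rose by 5.37 on the log2 scale (SE 0.595, adjusted p = 0.00132), Ptx3 by 5.53 (SE 0.685, adjusted p = 0.00164) and Has1 by 6.86 (SE 1.16, adjusted p = 0.00661). By p they ranked 7, 25 and 147 among the 16104 genes tested, of which 4.09% passed as higher and 0.584% as lower. The Has1 estimate and the ratio of summed counts above both rest on 8 sham counts. In each of the 3 genes all 6 PBBI samples lay above all sham samples, a separation found in 3.4% of the genes tested. An exact permutation test, two-sided, of each gene's log2 CPM over all splits of 11 rats gave p = 0.00216 for Ptx3 and for Timp1, the smallest it allows, and p = 0.00433 for Has1. In bulk tissue, more cells of a type and more RNA per cell cannot be told apart.

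All 3 calls held in each of the 11 fits that left out 1 sample. Without the library of PBBI rat 85 the log2 fold changes were 7.04 for Has1 (adjusted p = 0.00200), 5.37 for Ptx3 (adjusted p = 0.000542) and 5.50 for Timp1 (adjusted p = 0.000240). The injured group then averaged 4.06 ± 4.54 CPM of Has1 (SD, n = 5), 20.5 ± 16.0 of Ptx3 and 245.4 ± 139 of Timp1, all 5 samples lay above all sham samples in each gene, and the exact permutation test gave p = 0.00794 for each, the smallest it then allows. Without PBBI rat 81, the highest for each gene, the log2 fold changes were 5.99 for Has1, 5.29 for Ptx3 and 5.12 for Timp1.

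In the contralateral hemisphere no gene passed in edgeR, 0% of the 15907 tested, with 366 at an unadjusted p under 0.05. DESeq2 called 3 genes there and voom 1. Ptx3 had a log2 difference of 2.20 between PBBI and sham (SE 0.678, unadjusted p = 0.00617, adjusted p = 1.00) and Timp1 of 2.19 (SE 0.580, unadjusted p = 0.00218, adjusted p = 1.00). Single-gene exact permutation tests gave p = 0.0108 for Ptx3 and p = 0.0173 for Timp1. Neither gene had all PBBI samples above all sham samples, as 0.0943% of the tested genes did. Without rat 81 the differences were smaller, 1.35 for Ptx3 and 1.37 for Timp1. Has1 was below the count filter on this side, and the exact test of its log2 CPM gave p = 0.779. The 6 PBBI contralateral libraries held 17 Has1 counts and the 5 sham ones 14, a depth-corrected ratio of 0.942 with an exact 95% interval of 0.437 to 2.06, which covers counting error only. These counts cannot exclude a difference inside that interval or, since it leaves out variation between rats, somewhat beyond it. Without rat 81 the ratio was 0.603 (0.230 to 1.50).

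Within the 6 PBBI rats, the injured cortex had more of each gene than the opposite cortex in 6 of 6 animals, as did 10.4% of the 15973 genes tested. The lowest exact sign-flip p that 6 rats allow, 0.03125, was reached by all 3. Without rat 85 all 5 remaining rats had more of each gene on the injured side, with an exact sign-flip p = 0.0625, the lowest that 5 rats allow. Ptx3 was 5.84 times higher in the injured cortex of rat 83 and 51.7 times higher in that of rat 90, which are the extremes. The smallest ratio of Timp1 was 3.27, in rat 83, and the largest 25.1, in rat 96. For Has1 the ratio runs from 5.96 in rat 83 to 89.1 in rat 81 in the 4 rats that had any contralateral count.

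In edgeR this contrast gave log2 fold changes of 6.18 for Has1 (SE 1.05, adjusted p = 0.0130), 3.94 for Ptx3 (SE 0.741, adjusted p = 0.0161) and 3.38 for Timp1 (SE 0.668, adjusted p = 0.0195). All 3 passed as higher, as did 2.97% of genes. With the rat as a block the values were 5.88 for Has1 (adjusted p = 0.00865), 3.99 for Ptx3 (adjusted p = 0.00825) and 3.63 for Timp1 (adjusted p = 0.00825), and 6.68% of genes passed as higher. Without the block the calls of all 3 genes were lost when rat 88, 90 or 96 was left out, with adjusted p up to 0.0768 for Has1, 0.0867 for Ptx3 and 0.103 for Timp1. In the blocked fit they were kept whichever rat was left out. Without rat 85 they were kept in both fits, at 6.13 for Has1, 3.65 for Ptx3 and 3.31 for Timp1 without the block and at 5.81, 3.69 and 3.44 with it.

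The sham hemispheres differ by the side of the brain and the craniectomy, without the probe. In sham rat 82 they also differ in the library title, with PFC in the contralateral title only. Whether the dissected region differed within that pair was not tested. Ptx3 differed by 0.60 on the log2 scale (SE 0.505) and Timp1 by 0.18 (SE 0.354), both with an adjusted p of 1.00 in edgeR, and Has1 was below the filter. Of the 15747 genes tested 0% passed as higher, with or without the rat as a block, and 47 had an unadjusted p under 0.05. DESeq2 and voom called 0 genes too. Ptx3 and Timp1 were each higher ipsilaterally in 4 of the 5 sham rats, and Has1 in 1 of 5. Exact sign-flip tests gave p = 0.25 for Has1, p = 0.25 for Ptx3 and p = 0.625 for Timp1, where 5 rats allow no p under 0.0625.

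Whether the effect of injury differed between the hemispheres was tested as an interaction over all 22 samples. The effect on Has1 was larger ipsilaterally by 6.96 on the log2 scale (SE 1.50, adjusted p = 0.0476), while 0.307% of 16587 genes passed as higher. That call was lost when PBBI rat 88, 90 or 96 or any of the 5 sham rats was left out, with adjusted p up to 0.182. The Ptx3 difference was 3.34 (SE 0.929, adjusted p = 0.127) and that of Timp1 was 3.20 (SE 0.797, adjusted p = 0.0923), neither past the threshold. Taking the rat as a block, all 3 passed, with 6.75 for Has1 (adjusted p = 0.0148), 3.33 for Ptx3 (adjusted p = 0.0209) and 3.47 for Timp1 (adjusted p = 0.00800), when 2.95% of genes passed as higher. The exact permutation test on each rat's difference between hemispheres gave p = 0.00433 for each gene. The blocked call of Has1 was lost without sham rat 91 (adjusted p = 0.0545) and that of Ptx3 without sham rat 82, 84 or 91 (adjusted p up to 0.0676), and that of Timp1 was kept whichever of the 11 rats was left out. Without PBBI rat 85 all 3 passed with the block, at 6.64 for Has1, 3.04 for Ptx3 and 3.28 for Timp1.

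**Figure D2:**
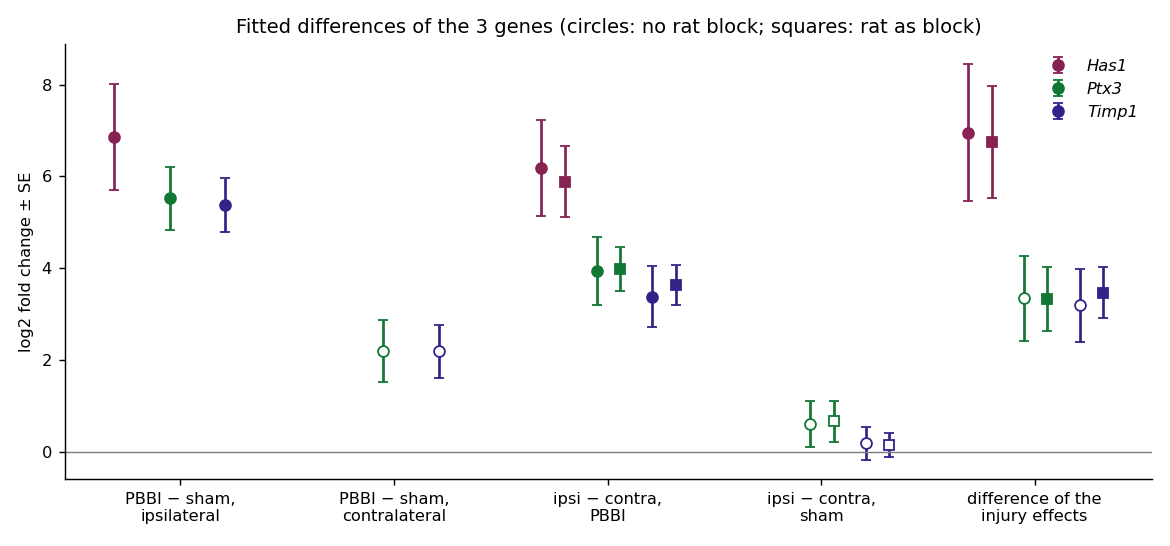
Log2 fold change ± SE (y axis) of the 3 genes in the 5 comparisons (x axis), as circles without and squares with the rat as a block, filled where the adjusted p was 0.05 or less. The interaction is open for Ptx3 and Timp1 without the block and filled with it, and Has1 has no estimate on the contralateral side or within sham.

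The 3 genes ranked the injured rats alike only in part. From highest to lowest, Has1 ordered them 81, 90, 88, 85, 96 and 83, Ptx3 81, 85, 90, 88, 83 and 96, and Timp1 81, 88, 90, 96, 85 and 83. Rat 81 was the highest for each gene in the injured cortex and also in its contralateral cortex. Rat 85, whose library stands apart, was next to rat 81 for Ptx3 and next to the lowest for Timp1. Over these 6 samples Has1 and Timp1 had Pearson r = 0.942 in log2 CPM (exact permutation p = 0.00556, adjusted over 3 pairs 0.0167) and Spearman rho = 0.886 (exact p = 0.0333, adjusted 0.1), and r was 0.825 without rats 83 and 81. For Has1 and Ptx3 r was 0.764 (exact p = 0.0833, adjusted 0.125) and rho 0.771 (exact p = 0.103, adjusted 0.154), with r = 0.551 without the same rats. For Ptx3 and Timp1 r was 0.574 (exact p = 0.225, adjusted 0.225) and rho 0.486 (exact p = 0.356, adjusted 0.356), and without rats 96 and 83 r was -0.13, so that relation rests on those samples. Without rat 85 r was 0.943 for Has1 and Timp1, 0.900 for Has1 and Ptx3 and 0.735 for Ptx3 and Timp1, over 5 samples.

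**Figure D3:**
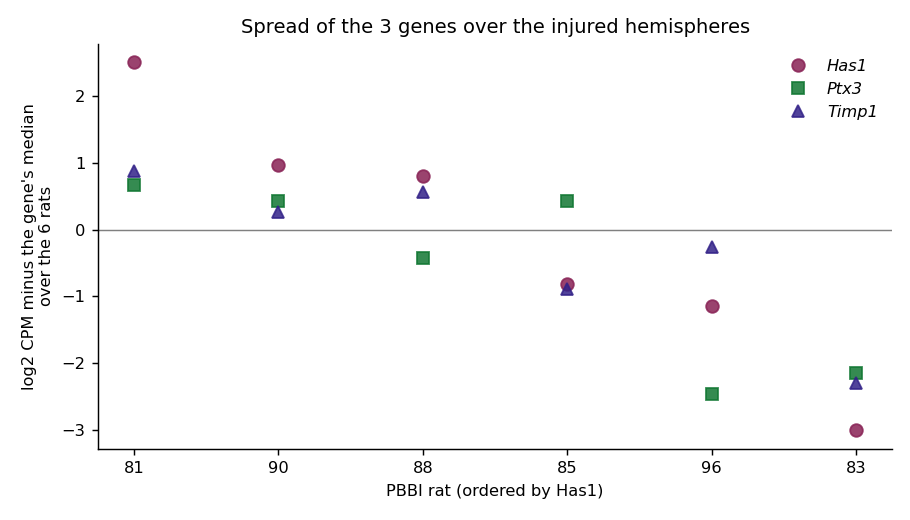
Log2 CPM of each gene in the ipsilateral cortex of the 6 PBBI rats (x axis, ordered by Has1), as the difference from the median of that gene over the rats (y axis). Rat 81 is at the top for all 3 genes, and rat 85 is above the median for Ptx3 and below it for Has1 and Timp1.

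Levels of different genes can be set side by side only per length. With the gene lengths in the deposited table (2096 bases for Has1, 1924 for Ptx3 and 740 for Timp1), the injured cortex held 303 ± 182 CPM per kilobase of Timp1 (SD, n = 6), 11.8 ± 7.97 of Ptx3 and 1.70 ± 2.02 of Has1. Timp1 was above Ptx3 in each of the 22 libraries. The per-kilobase ratio of Timp1 to Ptx3 was 9.14 to 105.7 in injured cortex (median 23.6) and 15.9 to 58.7 in sham ipsilateral cortex (median 22.5), so the ranges overlapped. Without rat 85 the injured ratios were 20.4 to 105.7 (median 26.6), and the means were 332 ± 188 CPM per kilobase of Timp1 (SD, n = 5), 10.6 ± 8.33 of Ptx3 and 1.94 ± 2.16 of Has1.

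Among other genes of hyaluronan synthesis and turnover, only 4 of the listed genes besides Has1 had a name and were tested. In the injured cortex 1 of the 4 was higher than in sham, none was lower and 3 did not pass, where 4.09% of all genes tested passed as higher and 0.584% as lower. These 4 had a median log2 fold change of 0.87. Over all genes tested it was -0.02, which is not a like background, since most names came from genes the study called in these samples. Has2, the synthase that makes long hyaluronan chains in many tissues, rose from 0.740 ± 0.273 CPM (SD, n = 5) to 4.49 ± 2.55 (n = 6), by 2.60 on the log2 scale (adjusted p = 0.00850). Has3, the remaining synthase, was at 1.30 ± 0.391 CPM in sham and 0.624 ± 0.355 in PBBI, a log2 difference of -1.06 that did not pass (adjusted p = 0.220). Ugdh, which makes a sugar precursor of hyaluronan, and Tmem2, a cell surface hyaluronidase, had log2 differences of 0.57 and 1.17 (adjusted p = 0.110 and 0.0877).

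Hyaluronan receptors and binding matrix counted 8 named and tested genes beside Ptx3, of which 3 rose, none fell and 5 did not pass, beside 4.09% higher and 0.584% lower among all genes tested, with a median log2 fold change of 1.85. Cd44, the main cell surface receptor of hyaluronan, rose from 10.7 ± 2.35 CPM (SD, n = 5) to 129.3 ± 75.8 (n = 6), by 3.59 on the log2 scale (adjusted p = 0.00243). Tnc, the matrix glycoprotein tenascin-C, rose by 2.43 (adjusted p = 0.0129) and the innate receptor Tlr2 by 1.09 (adjusted p = 0.0348). Tnfaip6 encodes TSG-6, which with PTX3 links hyaluronan chains. Its levels were 7.19 ± 3.33 CPM in sham and 31.1 ± 24.4 in PBBI, a log2 difference of 2.11 just outside the threshold (adjusted p = 0.0541). Ncan and Vcan had log2 differences of 2.52 and 1.59, and Hapln1 and Itih5 negative ones, of -1.59 and -0.98. None of these passed (adjusted p = 0.0747, 0.0757, 0.0703 and 0.0767). Within the PBBI rats Itih5 was lower in the injured than in the opposite cortex, at -1.09 on the log2 scale (edgeR adjusted p = 0.0295).

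Pentraxins and their partners, complement and Fc receptors among them, had 7 named and tested genes beside Ptx3. Of these 4 rose, none fell and 3 did not pass, against the 4.09% higher and 0.584% lower of all genes, with a median log2 fold change of 2.11. C1qc and C1qb, which encode chains of the complement component that PTX3 binds, rose by 1.51 (adjusted p = 0.0102) and 1.32 (adjusted p = 0.0402). The Fc gamma receptors Fcgr2b and Fcgr3a, which bind antibody and also pentraxins, rose by 2.75 (adjusted p = 0.00466) and 2.26 (adjusted p = 0.0235).

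The list of TIMPs, metalloproteinases and the TIMP1 receptor had 10 named and tested genes beside Timp1, of which 5 rose, none fell and 5 did not pass (4.09% and 0.584% of all genes passed as higher and lower), with a median log2 fold change of 2.34. Cd63, a tetraspanin that serves as a receptor for TIMP1, rose from 93.6 ± 18.8 CPM (SD, n = 5) to 410.4 ± 156 (n = 6), by 2.14 on the log2 scale (adjusted p = 0.00353). Adamts1, a protease that cuts hyaluronan-bound proteoglycans, rose by 3.35 (adjusted p = 0.00558). The metalloproteinases Mmp19 and Mmp9 rose by 2.92 (adjusted p = 0.0137) and 2.55 (adjusted p = 0.0182). Mmp12, Mmp3 and Adamts7 had positive log2 differences and Adamts15 and Mmp17 negative ones, of -0.92 and -1.36, and none of the 5 passed.

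Other protease inhibitors had 8 named and tested genes, of which 6 rose, none fell and 2 did not pass (4.09% and 0.584% over all genes), with a median log2 fold change of 3.10. Tfpi2, an inhibitor of trypsin-like proteases of the matrix, rose by 2.86 on the log2 scale (adjusted p = 0.00854). Cst7, an inhibitor of lysosomal cathepsins, and Serpinb2, a serine protease inhibitor, rose by 4.17 (adjusted p = 0.0167) and 4.10 (adjusted p = 0.0235) from 0.106 ± 0.0812 and 0.121 ± 0.111 CPM in sham.

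The tables behind these names cover 17.3% to 33.3% of each list, mostly genes the study called in these samples. All genes tested are therefore not a like background for the list counts and medians. A list's count also says nothing of its unnamed genes. In the contralateral cortex 0 genes of any of the 5 lists passed in edgeR. Of the ipsilateral fits that each left out 1 sample, Tlr2 kept its call in 2 of 11, C1qb in 4, Fcgr3a and Serpinb2 in 6, Mmp9 in 8 and Cst7 in 10. The other called genes named from these lists kept theirs in 11 of 11. Without PBBI rat 85 the counts of higher genes other than the 3 were 2, 6, 7, 7 and 7 in the order given, and leaving out PBBI rat 81 gave 1, 2, 4, 4 and 4. The lowest counts with a sample left out were 1, 2, 2, 3 and 3. The pentraxin list was at 2 without PBBI rat 88 or sham rat 82, 86 or 91, the TIMP list at 3 without sham rat 82, 91 or 94, and the other inhibitors at 3 without PBBI rat 88 or sham rat 82, 84, 91 or 94. Without PBBI rat 83 the hyaluronan receptors and binding matrix were at 5.

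**Figure D4:**
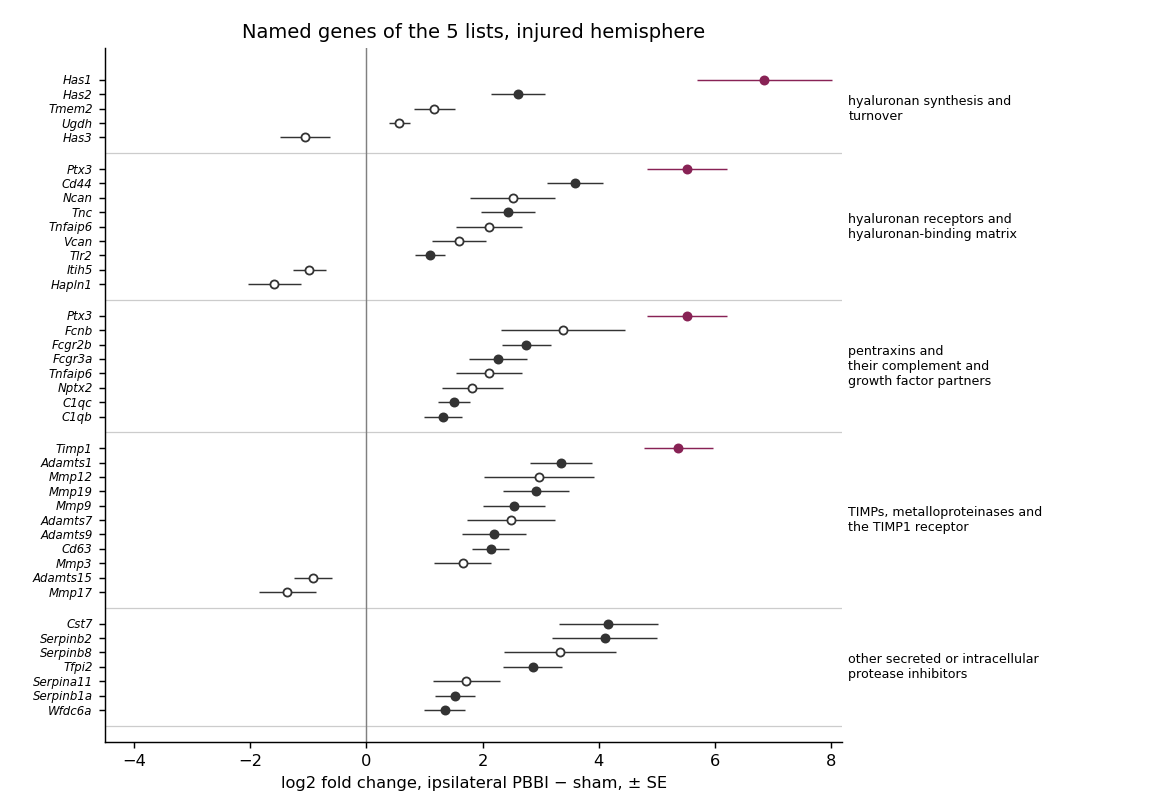
Log2 fold change ± SE between PBBI and sham in the ipsilateral cortex (x axis) of named and tested genes of the 5 lists (rows), with Has1, Ptx3 and Timp1 in purple and filled points where the adjusted p was 0.05 or less. Has1, Ptx3 and Timp1 have the highest estimate of their lists, and no point below 0 is filled.

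The named genes most like each of the 3 were found by Pearson r of log2 CPM over all 22 samples, which share the injured group as their high end. The search covered 13386 genes whose log2 CPM averaged 0 or more, with the 3 members kept at any level. Has1 had at most 8 counts in each sample outside the injured cortex. The genes most like Has1 included PVR (r = 0.957), a cell adhesion receptor, Ecscr (0.946), an endothelial surface protein, Adamts1 (0.945) and Cd14 (0.941), a receptor of monocytes and macrophages. For Ptx3 they were Cd63 (0.947), the monocyte chemokine Ccl7 (0.946), Ncf4 (0.940), a subunit of the phagocyte oxidase, Timp1 (0.931) and Chsy1 (0.929), a chondroitin synthase. For Timp1 they were the small heat shock protein gene Hspb1 (0.981), the cytokine feedback gene Socs3 (0.977), Cd14 (0.976), the intermediate filament gene Vim (0.971) and Emp3 (0.971), a membrane protein. 0 unnamed genes ranked above the last of the 5 for any of the 3. Between the members r was 0.931 for Ptx3 and Timp1, 0.910 for Has1 and Timp1 and 0.852 for Has1 and Ptx3.

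Markers of several cell types moved in the same samples. The 4 named astrocyte markers of 10 (Gfap, Vim, Gjb6 and Aldh1l1) summed to 2152 to 7434 CPM in injured cortex and 450.9 to 1040 in sham ipsilateral cortex. Gfap set that sum, and Aldh1l1 was lower in injured cortex, at 4.92 to 8.89 CPM against 10.2 to 19.2 (edgeR adjusted p = 0.0418). Gjb6 ran lower too, at 4.15 to 45.4 CPM against 33.7 to 61.4, a log2 difference of -1.53 that did not pass (edgeR adjusted p = 0.120). The 8 named markers of microglia and macrophages, of 15, summed to 240.3 to 1027 CPM against 124.7 to 262.3. The most abundant of them was Lyz2, a lysozyme of myeloid cells, at 145.5 to 764.3 CPM against 84.2 to 216.6 (edgeR adjusted p = 0.0677). Of the 7 tested, 4 passed as higher, none as lower and 3 did not pass, beside 4.09% higher among all genes tested. The 4 were Msr1, Cd14, Ptprc and Itgam, with log2 differences of 5.02, 5.17, 1.98 and 2.58 (edgeR adjusted p = 0.00132, 0.00274, 0.00551 and 0.00833). Tmem119, the marker of resident microglia, ran the other way, at 10.4 to 27.8 CPM against 26.5 to 41.7, a log2 difference of -0.92 that did not pass (edgeR adjusted p = 0.0799), and within the PBBI rats it fell by 1.20 in the injured against the opposite cortex (edgeR adjusted p = 0.0354). The 7 neutrophil markers of 14 summed to 34.3 to 252.2 against 10.4 to 62.3. Elane, a neutrophil granule protease, was at 0 counts in all sham ipsilateral samples and at most 31 in the injured ones. The 2 named markers of endothelium and pericytes, of 11, summed to 35.9 to 58.9 CPM against 30.5 to 51.0, but went opposite ways. Vwf was higher in injured cortex, at 23.4 to 49.1 CPM against 10.4 to 19.8, a log2 difference of 1.24 (edgeR adjusted p = 0.0112). Rgs5 ran lower, at 4.42 to 19.6 CPM against 15.1 to 31.2, a log2 difference of -0.79 that did not pass (edgeR adjusted p = 0.316). The 2 named markers of fibroblasts and leptomeninges, of 12, summed to 10.6 to 39.0 against 30.2 to 99.4. Kl, the choroid plexus marker with a name, was at 0.125 to 0.460 against 0.114 to 0.396. In PBBI contralateral cortex, however, Kl ran from 0.130 to 40.0 CPM (median 0.415), against 0.109 to 0.361 in sham contralateral cortex. Igf2, a fibroblast and leptomeninges marker, ran from 14.6 to 140.4 CPM in PBBI contralateral cortex, against 37.1 to 88.8 in sham contralateral cortex. The PBBI contralateral libraries enter the comparison within PBBI and the interaction. None of the oligodendrocyte or red blood cell markers had a name. Rat 85 had the lowest astrocyte and endothelial sums and the highest fibroblast sum of the injured samples. The part of cell composition in the change of the 3 genes was not tested.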

How the data were processed

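Bulk RNA-seq counts of 22 cortex samples from 11 rats were used. Per the labels and the study's methods, the authors depleted ribosomal RNA, made stranded paired-end libraries, aligned them with STAR 2.4.2a and counted reads on Ensembl Rnor 6.0 genes with featureCounts 1.4.3-p1. The deposited values are raw counts per gene with a gene length. How strand, read pairs and multiply aligned reads were counted is not given in the sources used here. The build is not that of the RefSeq promoter windows (GRCr8).

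The members and lists were chosen with earlier results of these data known. Samples were grouped by the treatment, hemisphere and animal number of the labels. Genes were tested with edgeR 4.0.16 in R 4.3.3 (quasi-likelihood, TMM, filterByExpr, Benjamini-Hochberg over all genes tested, threshold 0.05), and the SE is the log2 fold change divided by the root of F. A prior count of 2 was added for log2 CPM. Exact permutation tests were two-sided (scipy 1.17.1). Named genes were the members, up to 4 tested genes per list by smallest ipsilateral p, and the 5 named genes most like each member. Named for other reasons, after their values were seen, were single markers and further list genes that did not pass in the ipsilateral comparison. A gene that the rules chose is counted in its list and is not reported here.

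Same-numbered samples come from the same rat, and their deviations from the group means correlated at 0.246 to 0.758 in the 11 rats, against means of -0.191 to 0.0349 with other rats. The alternatives were the rat as replicate block, DESeq2 1.42.0 with and without its prior, limma 3.58.1 voom with sample weights, RLE factors, no filter or a minimum of 10 counts in each sample, all 22 samples in a single fit, and each sample left out. The scripts were tested on simulated data. Rats were operated on in weekly groups, and no week entered a fit.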

Additional observations from a re-analysis of the deposited data

Results flagged for a closer look

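Of the 12 groups formed by 3 genes and 4 sample groups, 3 had a sample far from the others by Dixon's ratio on CPM. In each it was PBBI rat 81, the only PBBI rat with PFC in its library titles, and whether its dissected region differed was not tested. It had 11.6 CPM of Has1 in the ipsilateral cortex, and 4.80 CPM of Ptx3 and 67.9 CPM of Timp1 in the contralateral cortex. The gap to the next sample, divided by the range of the group, was 0.671, 0.770 and 0.761.

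The effect of injury differed between the hemispheres by 6.96 on the log2 scale for Has1 (edgeR, adjusted p = 0.0476), 3.34 for Ptx3 and 3.20 for Timp1. The last 2 passed only with the rat as a block among the edgeR fits of all samples, and the exact test over rats gave p = 0.00433 for each gene.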

How the results depend on the processing

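In the ipsilateral comparison Has1, Ptx3 and Timp1 kept their direction and stayed past the threshold under every alternative that gave a value, while the count of genes called, 753, was 1702 with DESeq2 without its prior, 1680 with it, 5014 with voom, 1655 with all 22 samples in a single fit, and 316 (without sham rat 91) to 2186 (without PBBI rat 85) with a sample left out. Contralaterally 0 genes were called, 3 with DESeq2 without its prior, 1 with voom and 0 to 1 with a sample left out. For the difference of the injury effects 54 genes were called, 357 with DESeq2, 1663 with voom and 708 with the rat as replicate block, and within PBBI 568, 1612 with DESeq2, 3695 with voom, 1354 with all samples and 1646 with the block. With a rat left out the difference of the injury effects gave 0 (without PBBI rat 88) to 255 genes, and with the block 192 to 1358 (without PBBI rat 85). Within PBBI those ranges were 1 (without PBBI rat 88) to 1149, and 263 to 3356 with the block. The causes were not tested. The fold changes of the 3 genes moved most with the prior of DESeq2, to 3.95 for Has1, 4.44 for Ptx3 and 4.54 for Timp1 ipsilaterally and 0.61 for Ptx3 and 0.76 for Timp1 contralaterally, where voom gave 1.07 for Ptx3 and 1.78 for Timp1.

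For the difference of the injury effects Ptx3 and Timp1 passed with DESeq2 (3.34 and 3.21), with voom (3.87 and 3.68) and with the block (3.33 and 3.47). With a rat left out, with or without the block, Has1 was at 6.30 to 7.30, Ptx3 at 2.99 to 3.95 and Timp1 at 2.83 to 3.83; without the block Has1 lost its call in 8 of 11 such fits, and Ptx3 passed in 1 and Timp1 in 2. Within PBBI the same ranges were 5.42 to 6.51, 3.65 to 4.55 and 3.23 to 3.98. Timp1 within sham was at -0.13 without rat 94 and 0.53 without rat 91, and never passed. The correlation of Has1 and Ptx3 was 0.63 to 0.90 with a sample left out and that of Has1 and Timp1 0.89 to 0.98. Of 358 values of the 20 list genes of the rule under alternatives, 312 kept their call, 30 lost it, 16 gained it and 0 reversed. The blocked fits with a rat left out and the values of the 3 genes without rat 85 were chosen after seeing the data. The block changed no other call of the 3 genes. Under a minimum of 10 counts in each sample Has1 had no value in any comparison, and Ptx3 had one only in the ipsilateral comparison and within PBBI.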
